A study of Mus musculus with 19 samples.

Results

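Potassium channel genes were followed across 19 RNA sequencing libraries of mouse locus coeruleus. This noradrenergic nucleus of the brainstem fires more in waking than in sleep. The members were all gene symbols of the count table that begin with Kcn, leaving out the Kcnn genes, Kcnj8 and Kcnj10. They numbered 67 of the 14443 symbols with counts. Of these, 66 are channel or channel subunit genes and 1, Kcnq1ot1, is a long noncoding transcript from the strand opposite Kcnq1. Controls were ABC-Ctrl mice, either left to sleep normally (WT_S6, 4 libraries) or kept awake for 6 h (WT_SD6, 5 libraries). ABC-CnB1KO mice were handled likewise and gave 5 libraries after sleep (CnB1KO_S6) and another 5 after deprivation (CnB1KO_SD6), so that genotype and sleep crossed in 4 groups. CnB1 is the regulatory subunit of calcineurin, a phosphatase switched on by calcium, and is encoded by Ppp3r1. All brains were taken 4 weeks after injection of AAV-hSyn-Cre, a virus in which the synapsin promoter drives Cre recombinase in neurons, so glia of a CnB1KO mouse are not the cells this promoter serves. The samples were pieces cut from frozen sections and hold every cell type of the dissected region.

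A potassium channel lets potassium leave the cell and so pulls the membrane back toward rest. Voltage-gated members (Kcna, Kcnb, Kcnc, Kcnd, Kcnh, Kcnq) repolarise action potentials and set firing rate, inward rectifiers (Kcnj) and tandem-pore leak channels (Kcnk) set resting potential, and large channels of the Kcnma and Kcnt families open on calcium or sodium. Locus coeruleus neurons pace themselves, and noradrenaline or opioids silence them through G protein-gated inward rectifiers of the Kcnj family. The comparisons ask whether the transcripts of these channels follow prolonged waking, loss of CnB1, or marker scores of the cell types in the dissected piece.

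Levels between genes are given as the authors' FPKM (fragments scaled by transcript length and by the fragments mapped in the library), and levels between libraries as CPM (counts scaled by the library total, with TMM factors that correct for library composition). Total counts ran from 3887298 to 7903253 per library, and no member had a 0 or fewer than 11 counts in any library. The summed CPM of the 67 members was 6542 ± 248 (SD, n = 4) after sleep and 6617 ± 116 (SD, n = 5) after deprivation in WT, and 6626 ± 174 (SD, n = 5) and 6510 ± 378 (SD, n = 5) in CnB1KO, so the 4 groups overlapped. Ppp3r1 checks the genotype labels: it was 161 ± 4.08 (SD, n = 4) and 152 ± 10.9 (SD, n = 5) CPM in the WT groups and 129 ± 13.2 (SD, n = 5) and 133 ± 6.73 (SD, n = 5) CPM in the CnB1KO groups, sleep before deprivation. The averaged difference was 1.20-fold (edgeR adjusted p = 0.00758), and neither sleep state passed by itself (edgeR adjusted p = 0.104 and 0.177). After sleep all WT libraries (155 to 164 CPM) lay above all CnB1KO libraries (120 to 152 CPM), and after deprivation the genotypes overlapped (136 to 165 against 123 to 141 CPM). The tissue label was met by its markers, since Th and Dbh, which encode enzymes of noradrenaline synthesis, were present in every library, at 58.8 to 153 and 111 to 285 CPM. Library 8 of WT_SD6 stood apart: it had the lowest Th and Dbh and the highest level of cerebellar granule cell markers. Named slopes on marker scores that lose their call without it are given both ways. The libraries do not keep strand, and 22 members share exon bases with another gene, so their counts are uncertain in that part. The largest shares were 39.6% of the exon bases of Kcna6 and 31.1% of those of Kcnj3.

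Transcripts of fast voltage-gated channels were among the most abundant. The Kcnc genes, whose channels let neurons fire at high rates, held 17.1% of the summed FPKM of all members with 4 genes. Among the highest means were those of Kcnab2 at 67.3 ± 7.17 FPKM (SD, n = 19) and Kcnc1 at 63.9 ± 5.30 FPKM, which differed by less than the spread between libraries. The 10 highest members together held 41.5% ± 1.16 (SD, n = 19) of the summed FPKM. There were 34 members above 10 FPKM and 8 below 2 FPKM.

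The subfamilies differed in how evenly their genes were used. The Kcna genes encode low-threshold channels and held 11.1% of the sum. Among them Kcna2 (42.6 ± 2.64 FPKM), Kcna1 (35.3 ± 4.63 FPKM) and Kcna6 (30.7 ± 2.30 FPKM) were high and Kcna5 (3.60 ± 0.975 FPKM) was low. The Kcnab genes encode cytoplasmic beta subunits that bind Kcna channels, and all 3 were abundant, from 27.6 ± 4.98 FPKM for Kcnab3 to 67.3 for Kcnab2. The A-type channel genes Kcnd3 (28.2 ± 2.59 FPKM) and Kcnd2 (27.9 ± 4.94 FPKM) were alike in level and stood above Kcnd1 (6.79 ± 1.16 FPKM). Their calcium-binding partners, the Kcnip genes, were led by Kcnip4 (38.8 ± 1.55 FPKM). Kcnip4 varied least of all members, from 36.4 to 41.8 FPKM over 19 libraries.

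Among the inward rectifiers, Kcnj9 (24.1 ± 4.05 FPKM), Kcnj16 (22.4 ± 1.38 FPKM), Kcnj11 (20.7 ± 1.48 FPKM) and Kcnj3 (20.3 ± 2.41 FPKM) were close to each other. Kcnj3, Kcnj6 (10.8 ± 1.75 FPKM), Kcnj9 and Kcnj5 (1.81 ± 0.420 FPKM) encode the G protein-gated channels, and Kcnj11 the pore of the ATP-sensitive channel. Among the leak channels, Kcnk1 (43.6 ± 4.63 FPKM) and Kcnk9 (24.4 ± 2.14 FPKM), an acid-sensitive channel, were highest and Kcnk6 (1.09 ± 0.164 FPKM) lowest. Of the M-current genes, whose channels damp repetitive firing, Kcnq3 stood at 18 ± 2.27 FPKM and Kcnq5 at 5.44 ± 1.47 FPKM. Kcnq1, best known from heart and ear, had the lowest level of all members, 0.671 ± 0.188 FPKM.

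Of the remaining subfamilies, Kcnh2 (36.2 ± 4.06 FPKM), the ERG channel gene, led the Kcnh genes. Kcnt1 (39.8 ± 6.42 FPKM) was the main sodium-activated channel gene and Kcnma1 (25.0 ± 3.41 FPKM) the gene of the large calcium-activated channel. The genes Kcnf1, Kcng1, Kcng2, Kcng4, Kcns1, Kcns2, Kcns3 and Kcnv1 encode electrically silent subunits that work only together with Kcnb channels. Of these, Kcng4 was highest at 28.9 ± 9.43 FPKM and Kcnv1 lowest at 1.33 ± 0.443 FPKM. Kcng4 ranged from 14.7 to 46.0 FPKM, and Kcnj14, an inward rectifier known from motor neurons, from 0.993 to 6.2 FPKM, a 6.2-fold span.

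**Figure D1:**
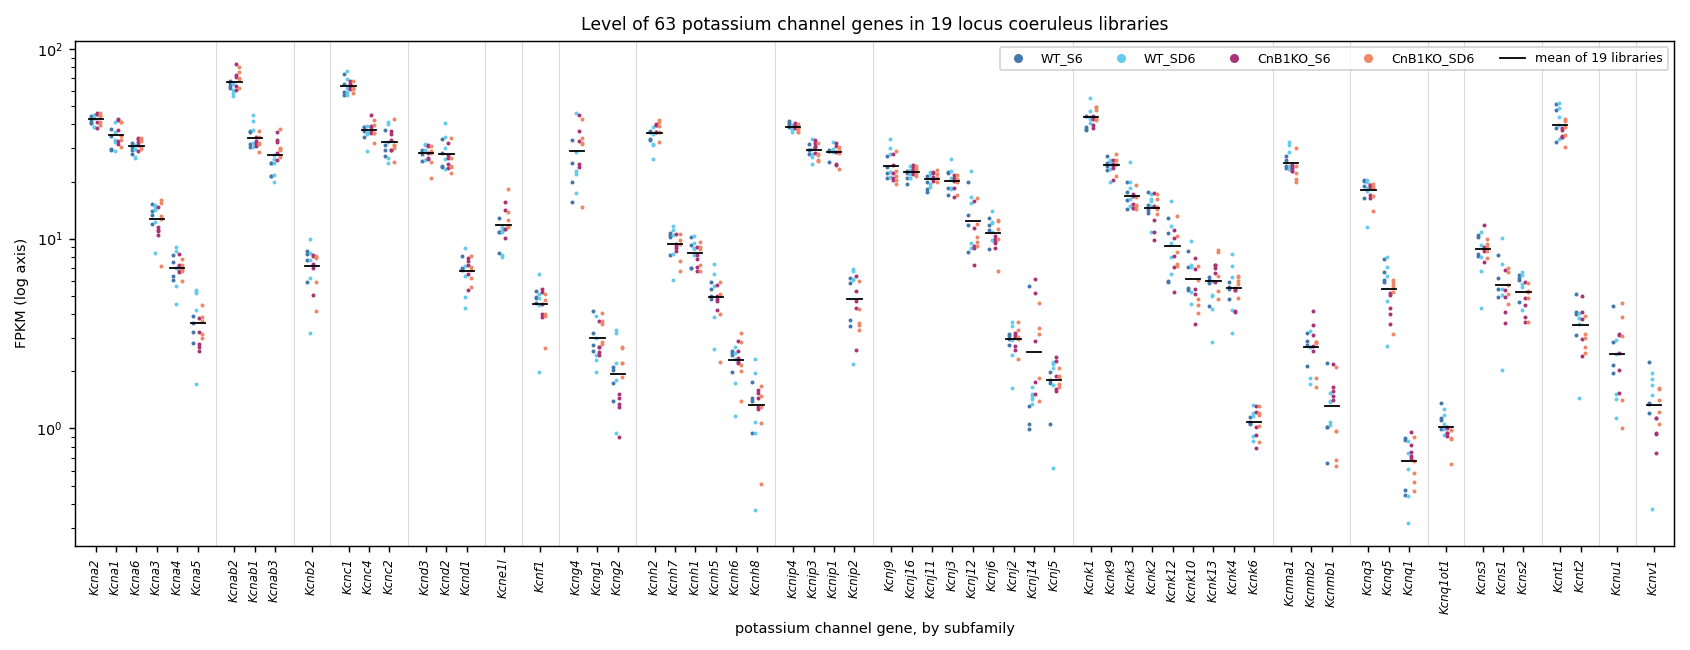
FPKM of 63 of the 67 members (log axis) by subfamily, with 1 point per library coloured by group and a black line at the mean of 19 libraries. Kcnab2 is highest of those drawn at 67.3 FPKM and Kcnq1 lowest at 0.671 FPKM, and the points of the 4 groups overlap for nearly every gene.

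Sleep deprivation changed no potassium channel transcript past the threshold used, an adjusted p under 0.05 over all 14443 genes (edgeR, quasi-likelihood F test). In WT, 0 of 67 members passed, where 1.14% of all genes did. In CnB1KO, 0 of 67 passed, where 0.692% of all genes did, and averaged over genotypes 0 of 67 passed, where 4.69% of all genes did. At an unadjusted p under 0.05 there were 1, 3 and 3 members in these 3 comparisons, against 11.6%, 9.69% and 17.2% of all genes. DESeq2 and limma voom also called 0 members in each. The median log2 change of the members averaged over genotypes was 0.00, the same as over all genes. For 60 of the 67 members the 95% interval of the averaged change lay inside a 1.5-fold change in either direction, so larger changes are outside the interval for them. These include Kcnj3 (log2 change 0.06, interval -0.09 to 0.22), Kcnj6 (0.11, -0.11 to 0.32) and Kcnma1 (0.06, -0.09 to 0.20).

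The members nearest the threshold were Kcng2, Kcnk1, Kcnip4 and Kcnmb2. Kcng2, a silent subunit gene of low level, had 4.57, 6.79, 5.72 and 6.79 CPM in the 4 WT_S6 libraries and 10.6, 6.78, 3.20, 6.00 and 9.14 CPM in the 5 WT_SD6 libraries. It had 4.33, 4.97, 3.0, 4.56 and 4.05 CPM in CnB1KO_S6 and 6.05, 8.17, 5.64, 8.70 and 7.17 CPM in CnB1KO_SD6. In CnB1KO all 5 deprived libraries lay above all 5 sleep libraries, while in WT the groups overlapped and WT_SD6 library 8, at 3.20, was the lowest. Kcng2 was the 1 member whose groups did not overlap in CnB1KO, where 2.66% of all genes did not overlap. No member separated the groups in WT, where 5.21% of all genes did, or over both genotypes, where 0.561% did. The averaged difference of Kcng2 was 1.42-fold (log2 0.51, SE 0.17, edgeR adjusted p = 0.114). Without WT_SD6 library 8 it was 0.60 on the log2 scale and passed (edgeR adjusted p = 0.0144, against 0.0144 to 0.292 over 28 alternatives). Kcna5, a delayed rectifier gene, passed only there too (log2 0.42, edgeR adjusted p = 0.0247, against 0.343 with all libraries).

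Kcnk1, a weakly rectifying leak channel gene, had 79.9, 77.3, 94.9 and 81.3 CPM in WT_S6 and 86.9, 89.0, 118, 103 and 91.8 CPM in WT_SD6. In CnB1KO_S6 it had 86.8, 95.2, 96.3, 79.2 and 91.9 CPM and in CnB1KO_SD6 104, 91.0, 100, 104 and 85.6 CPM. The groups overlapped in both genotypes. The averaged difference was 1.13-fold (log2 0.17, SE 0.06, edgeR adjusted p = 0.137), and it passed where the noradrenergic marker score described further on was a covariate (log2 0.16, edgeR adjusted p = 0.0429, against 0.0429 to 0.256 over 29 alternatives). Kcnip4 was 91.3 ± 2.50 (SD, n = 4) and 86.7 ± 2.03 (SD, n = 5) CPM in WT after sleep and deprivation. In CnB1KO it was 91.1 ± 2.40 (SD, n = 5) and 87.6 ± 3.58 (SD, n = 5) CPM. Its averaged log2 change was -0.07 (SE 0.03, edgeR adjusted p = 0.173). Kcnmb2, an inactivating subunit of the Kcnma1 channel, had an averaged log2 change of -0.27 (SE 0.13, edgeR adjusted p = 0.299).

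The response to deprivation was then compared between genotypes. In this interaction 0 of 67 members passed, where 0% of all genes did, and at an unadjusted p under 0.05 there were 0 members by edgeR against 1.99% of all genes. DESeq2 and limma voom called 0 members. The smallest unadjusted p belonged to Kcnmb1, a calcium-sensitising subunit of the Kcnma1 channel. Its log2 deprivation change was lower in CnB1KO by 0.70 (interaction -0.70, SE 0.45, edgeR adjusted p = 1.0). The value depended on single libraries: it was -1.15 without WT_S6 library 1, -1.08 without CnB1KO_SD6 library 16 and -0.48 without WT_S6 library 3. The interval of the interaction lay inside 1.5-fold for 36 members, so for the other members a difference of that size between genotypes was not excluded by these libraries.

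**Figure D2:**
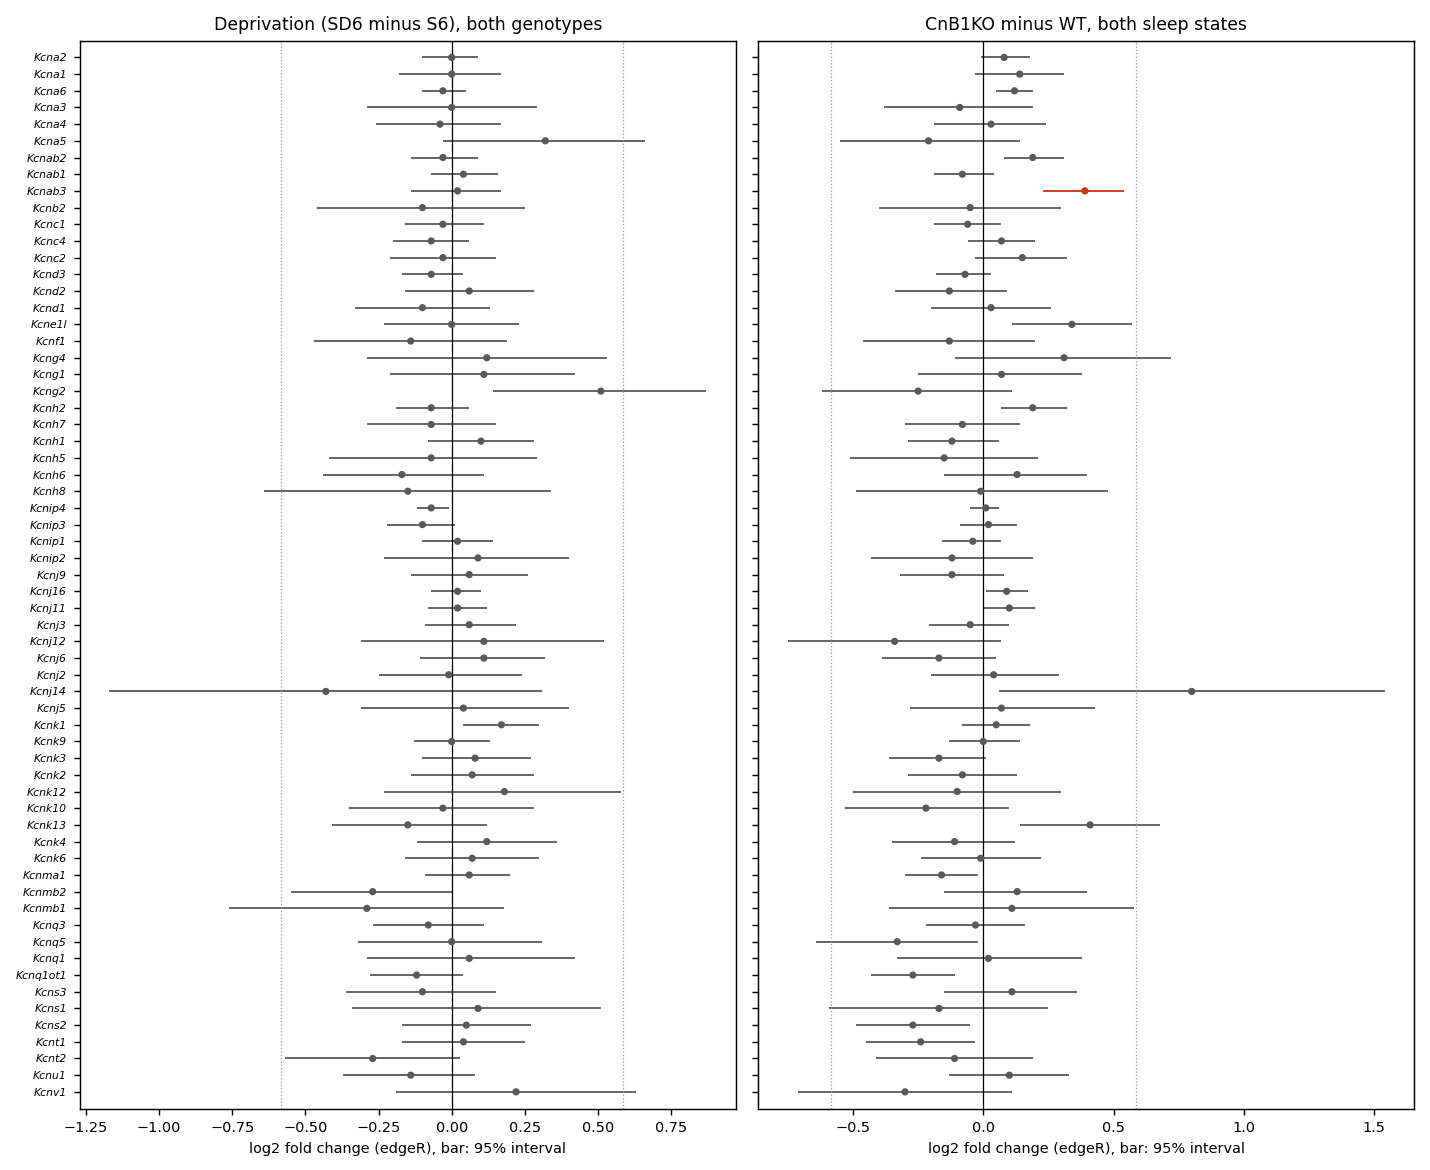
Fitted log2 fold change of 63 of the 67 members with its 95% interval, for deprivation averaged over genotypes (left) and for CnB1KO against WT averaged over sleep states (right), with dotted lines at 1.5-fold. Only Kcnab3, in red at 0.39 on the right, passed an adjusted p under 0.05 in edgeR.

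Loss of CnB1 was accompanied by a higher level of 1 potassium channel transcript, that of the beta subunit gene Kcnab3. The gene lies on chromosome 11 from 69326258 to 69333042 (GRCm38, GENCODE M21, plus strand), and 5.1% of its exon bases are shared with the antisense gene Kcnab3os. It had 58.5, 51.5, 61.1 and 53.1 CPM in WT_S6 and 65.7, 50.2, 61.4, 53.3 and 64.0 CPM in WT_SD6. It had 65.0, 90.0, 82.7, 67.5 and 76.9 CPM in CnB1KO_S6 and 63.4, 74.5, 89.0, 73.3 and 70.3 CPM in CnB1KO_SD6. After sleep all 5 CnB1KO libraries lay above all 4 WT libraries. After deprivation 4 of 5 CnB1KO libraries lay above all 5 WT libraries. Averaged over sleep states Kcnab3 was 1.31-fold higher in CnB1KO (log2 0.39, SE 0.07, 95% interval 0.23 to 0.54, edgeR adjusted p = 0.0135). Within a sleep state it was 1.36-fold higher after sleep and 1.26-fold higher after deprivation, and neither passed by itself (edgeR adjusted p = 0.194 and 0.174).

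This made 1 of 67 members called, in the upward direction, where 3.09% of all genes were called and 1.88% upward. Across 29 alternatives the Kcnab3 difference stayed between 0.24 and 0.41 on the log2 scale, and it passed in 28 of them. It did not pass with the oligodendrocyte marker score as a covariate (log2 0.24, edgeR adjusted p = 0.387), where only 10 of all genes passed. Leaving out any 1 library gave adjusted p-values from 0.00632 to 0.0455. The mean of that score was 0.05 ± 0.09 (SD, n = 4) and -0.23 ± 0.11 (SD, n = 5) in WT after sleep and deprivation, and 0.15 ± 0.19 (SD, n = 5) and 0.04 ± 0.14 (SD, n = 5) in CnB1KO. For deprivation averaged over genotypes, 3 of the 12 markers of that score (Mog, Opalin and Aspa) were called lower. In that comparison 4.69% of all genes were called in either direction. Opalin was 2.11-fold lower (edgeR adjusted p = 4.7e-06). Whether the score followed cell content or the expression of its markers was not tested. Of the 12 oligodendrocyte markers 3 (Mag, Ermn and Ugt8a) were called higher in CnB1KO. All 12 summed to 1953 to 2391 CPM in the WT libraries and 2069 to 3196 CPM in the CnB1KO libraries. Endothelial markers were also called higher, 6 of 10, with sums of 487.4 to 614.2 CPM in WT and 590.5 to 768.5 CPM in CnB1KO. Cerebellar granule cell markers had a median log2 change of -0.61, with 0 of 10 called. The part of these cells in the Kcnab3 difference was not tested beyond the covariate fits. In bulk tissue, fewer cells of a type and less RNA per cell cannot be told apart.

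Kcnab3 and Ppp3r1 lie on the same chromosome, 52.1 Mb apart. Of the 60 genes within 1 Mb of Kcnab3, 4 were called higher and 3 lower in CnB1KO. Over all genes 3.09% were called in either direction, so calls were more frequent in this window. The median log2 change of the 60 was 0.04, and the reason for the calls was not tested. The other beta subunits did not pass. Kcnab2 had an averaged log2 difference of 0.19 (SE 0.06, edgeR adjusted p = 0.0603; 0.0357 with DESeq2) and Kcnab1 of -0.08 (SE 0.05, edgeR adjusted p = 0.392). Kcnab2 had 363 CPM in CnB1KO_S6 library 13, the library with the lowest total count, and 237 to 317 CPM in all others.

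Below the threshold stood 5 more members with an adjusted p under 0.1, and none of them is called. The share of all genes under that limit is not given here. Kcnk13, a leak channel known from microglia, was 20.1 ± 2.85 (SD, n = 4) and 16.5 ± 4.06 (SD, n = 5) CPM in WT and 24.4 ± 2.12 (SD, n = 5) and 24.0 ± 6.32 (SD, n = 5) CPM in CnB1KO, after sleep and deprivation. The difference was 1.33-fold (log2 0.41, SE 0.13, edgeR adjusted p = 0.0733). Of the 10 microglia markers, C1qa and C1qc were called higher in CnB1KO. The sums were 266.6 to 368.5 CPM in WT and 312.9 to 374.5 CPM in CnB1KO, and the part of microglia was not tested. Kcnq1ot1 had a log2 difference of -0.27 (SE 0.08, edgeR adjusted p = 0.0600; 0.0257 with DESeq2). The remaining 3 were Kcna6 (log2 0.12, SE 0.03, edgeR adjusted p = 0.0623), Kcnh2 (0.19, SE 0.06, 0.0753) and the accessory subunit gene Kcne1l (0.34, SE 0.11, 0.0805). At an unadjusted p under 0.05 there were 13 members, 8 higher and 5 lower, which is 19.4% beside 23.1% of all genes.

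Within a sleep state no member passed between genotypes. After sleep 0 of 67 passed, where 0.0485% of all genes did. At an unadjusted p under 0.05 there were 6 members, 8.96% beside 10.1% of all genes. After deprivation 0 of 67 passed, where 0.132% of all genes did. At an unadjusted p under 0.05 there were 8 members, 11.9% beside 15.2% of all genes. DESeq2 and limma voom called 0 members in both. Groups did not overlap for 3 members after sleep (Kcnab3 higher, Kcnq5 and Kcnv1 lower in CnB1KO) where 4.32% of all genes did not, and for 0 after deprivation, where 2.05% did not. With both sleep states together 0 members separated the genotypes, where 0.152% of all genes did. For 59 members the interval of the averaged genotype difference lay inside 1.5-fold.

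**Figure D3:**
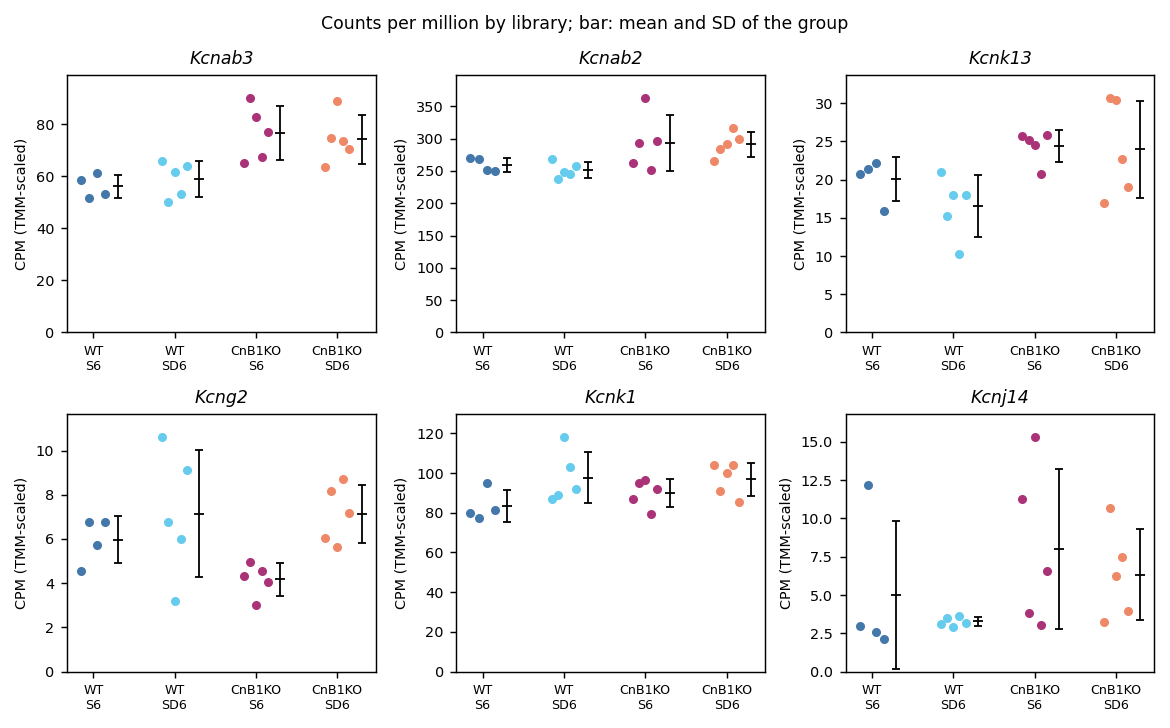
CPM in every library (points) with the group mean and SD (bars) for 6 members in the 4 groups. Kcnab3 runs from 50.2 to 65.7 CPM in WT and from 63.4 to 90.0 CPM in CnB1KO, Kcng2 in CnB1KO does not overlap between sleep and deprivation, and Kcnj14 is above 10 CPM in 4 libraries of 3 groups.

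Kcnj14 had the largest genotype difference in size without passing, 1.74-fold (log2 0.80, SE 0.35, edgeR adjusted p = 0.185). It was above 10 CPM in WT_S6 library 2, CnB1KO_S6 libraries 11 and 13 and CnB1KO_SD6 library 17, from 10.7 to 15.3 CPM, and 2.16 to 7.46 CPM in the other 15. Without WT_S6 library 2 the difference was 1.27 on the log2 scale and passed (edgeR adjusted p = 0.0465). The genes whose log2 CPM was most like that of Kcnj14 over the 19 libraries were Tbx20, a transcription factor gene of cranial motor neurons, and Grin3b, which encodes a glutamate receptor subunit also found in motor neurons (Pearson r = 0.87 and 0.86, a description chosen after the values were seen). The next was Dffa (r = 0.79). Tbx20 had 7.51 to 12.8 CPM in the 4 libraries high in Kcnj14 and 0.163 to 8.88 CPM in the other 15. Grin3b had 4.48 to 7.45 CPM in the same 4 and 1.82 to 7.46 CPM in the other 15, so both genes overlapped. Summed cholinergic markers reached 229 to 362 CPM in those 4 libraries and 49.2 to 367 CPM in the others.

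The level of many potassium channel genes moved with marker scores meant to follow the cell content of the piece. The score of a library was the mean over a marker list of log2 CPM, centred on its mean over libraries. The slope of each gene on the score was fitted with the group terms kept. Whether a score followed cell content or the expression of its markers was not tested. On the noradrenergic score (10 markers, among them Th, Dbh and the noradrenaline transporter gene Slc6a2) 35 of 67 members passed, 19 with a positive and 16 with a negative slope (10.5% and 11.3% of all genes). These are 52.2% of the members, where 21.8% of all genes passed. On the cerebellar granule cell score (10 markers, among them Gabra6 and Cbln3) 24 passed, 35.8% where 20.6% of all genes did. Of them 14 had a positive and 10 a negative slope (12.4% and 8.20% of all genes). On the oligodendrocyte score 1 passed, Kcnab2 (slope 0.78, SE 0.13, edgeR adjusted p = 0.00313), where 1.65% of all genes did and 1.38% with a positive slope. Kcnab3 had a slope of 0.81 on that score (edgeR adjusted p = 0.0854). Without WT_SD6 library 8 its slope was 0.83 and passed (edgeR adjusted p = 0.0409), as 1 of 10 members that passed there, where 1395 of all 14443 genes did.

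The noradrenergic and cerebellar scores were themselves related across the 19 libraries (Pearson r = -0.72, Spearman rho = -0.82, permutation p = 4.7e-04 and 5.0e-05, adjusted over 3 pairs of scores 0.00141 and 1.5e-04). Without the 2 libraries farthest from the median of the noradrenergic score, r was -0.78. All 22 members that passed on both scores had opposite signs on them, 62.9% of the 35 and 91.7% of the 24. With all 3 scores in 1 fit, 3 members passed on the noradrenergic score (Kcna4, Kcnj3 and Kcnk12), 0 on the cerebellar score and 0 on the oligodendrocyte score. Which of the first 2 scores a member follows can therefore not be told apart for the others. The share of all genes that passed in this joint fit is not given here. Without WT_SD6 library 8, whose noradrenergic score was -1.05 against -0.47 to 0.37 elsewhere, 9 members passed on the noradrenergic score, where 5.94% of all genes did. All 35 kept the sign of their slope. All 9 were among the 35, and they included Kcna4, Kcnb2 and Kcns1 with positive and Kcnd2, Kcng4, Kcnj3, Kcnk3 and Kcnk12 with negative slopes.

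Kcns1, a silent subunit gene, had the steepest positive slope. It had 25.5, 19.4, 15.5 and 17 CPM in WT_S6, 23.2, 16, 6.4, 17.3 and 31.4 CPM in WT_SD6, 15.5, 11.5, 13.6, 16.7 and 21.7 CPM in CnB1KO_S6 and 16.2, 18.1, 14, 22.4 and 20.9 CPM in CnB1KO_SD6. The lowest value, 6.4, was that of WT_SD6 library 8, and the next lowest, 11.5, that of CnB1KO_S6 library 12, the library with the second lowest noradrenergic score. The slope was 1.09 (SE 0.18, edgeR adjusted p = 3.6e-04), or 0.84 without WT_SD6 library 8 (adjusted p = 0.0226). Its channel partner Kcnb2 had the next steepest slope, 0.88 (SE 0.15, edgeR adjusted p = 5.5e-04), from 50.1 CPM in WT_SD6 library 8 to 154 CPM in WT_SD6 library 10.

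Kcnk12, a leak channel gene of the halothane-inhibited type, had the steepest negative slope. It had 14, 14, 30.5 and 24.8 CPM in WT_S6, 15.7, 22.2, 37.8, 27.5 and 19 CPM in WT_SD6, 17.1, 24.4, 12.8, 25.4 and 19.3 CPM in CnB1KO_S6 and 31.2, 25.2, 16.6, 19.9 and 16.9 CPM in CnB1KO_SD6. The highest value, 37.8, was in WT_SD6 library 8, and the lowest in CnB1KO_S6 library 13, which had a high noradrenergic score of 0.32. The slope was -0.96 (SE 0.15, edgeR adjusted p = 2.3e-04), or -1.12 without library 8 (adjusted p = 0.00395), and it passed in all 22 alternatives.

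The promoters of these genes, the steepest in each direction, are shown as the 250 bases before the transcription start given by RefSeq (GRCm38.p6), 5′ to 3′ on the strand of the gene, with each CG dinucleotide in capitals. Kcns1 lies on the minus strand with its promoter at chr2:164171114-164171363, and Kcnk12 on the minus strand with its promoter at chr17:87797995-87798244.
Kcns1: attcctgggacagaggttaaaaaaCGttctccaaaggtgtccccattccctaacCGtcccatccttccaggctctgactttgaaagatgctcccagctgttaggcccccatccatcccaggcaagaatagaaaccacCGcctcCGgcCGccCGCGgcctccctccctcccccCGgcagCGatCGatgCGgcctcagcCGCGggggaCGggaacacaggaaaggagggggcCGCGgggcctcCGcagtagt
Kcnk12: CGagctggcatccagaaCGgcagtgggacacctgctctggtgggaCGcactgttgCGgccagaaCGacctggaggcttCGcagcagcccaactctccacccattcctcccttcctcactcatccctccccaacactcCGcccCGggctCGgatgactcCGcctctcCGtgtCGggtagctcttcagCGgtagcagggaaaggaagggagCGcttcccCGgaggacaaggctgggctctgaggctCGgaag
The first holds 17 CG dinucleotides and 63.2% G or C, the second 16 and 64.8%, where the median over 32851 RefSeq promoters was 6 and 52.4%. ATTA, the core letters bound by many homeodomain factors, was searched on both strands (ATTA or TAAT). It was found in 54.9% of all promoters and in neither of these, which says only that these letters are not in these windows. Of the 67 members 46 had a promoter entry, 34 of them a single 1.

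With all 19 libraries, several sets of related genes held slopes of opposite sign on the noradrenergic score. Of these sets 5 are given here, and the next paragraph holds others. Of the Kcnc genes, Kcnc2 (0.38) and Kcnc4 (0.23) rose with the score and Kcnc1 (-0.25) fell. Of the A-type genes, Kcnd1 (0.38) rose and Kcnd2 (-0.50) fell, while the slope of Kcnd3 was -0.04 (edgeR adjusted p = 0.771). Of the acid-sensitive leak channels, Kcnk9 (0.27) rose and Kcnk3 (-0.43) fell. Of the sodium-activated channels, Kcnt2 (0.67) rose and Kcnt1 (-0.40) fell. Of the strong inward rectifiers, Kcnj2 (0.56) rose and Kcnj12 (-0.83) fell. For each of these pairs the 95% intervals of the slopes do not overlap with all libraries. Each pair lost at least 1 call without WT_SD6 library 8. Kcnd2 (-0.52, edgeR adjusted p = 0.0243) and Kcnk3 (-0.36, 0.0488) still passed. Kcnc1 (-0.25, 0.134), Kcnc2 (0.36, 0.0721), Kcnc4 (0.18, 0.280), Kcnd1 (0.34, 0.293), Kcnk9 (0.25, 0.110) and Kcnt1 (-0.45, 0.0727) had slopes near those with all libraries but did not pass. Kcnj12 (-0.86, 0.0777) did not pass either, nor did Kcnj2 (0.39, 0.109) and Kcnt2 (0.43, 0.171).

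Among the G protein-gated rectifiers, Kcnj3 fell with the noradrenergic score, from 156 CPM in WT_SD6 library 8 down to 97.4 CPM in CnB1KO_SD6 library 20. Its slope was -0.39 (SE 0.05, edgeR adjusted p = 4.3e-05), the smallest p of all members, and -0.41 without library 8 (adjusted p = 0.00268). Kcnj9 (-0.39) fell too, Kcnj5 (0.71) rose, and Kcnj6 had a slope of 0.02 (edgeR adjusted p = 0.940). Without library 8 neither Kcnj5 nor Kcnj9 passed, with a slope of 0.30 for Kcnj5 (edgeR adjusted p = 0.404) and of -0.42 for Kcnj9 (edgeR adjusted p = 0.0884). Of the silent subunits, Kcnf1 (0.56), Kcng1 (0.55), Kcns1 and Kcns3 (0.56) rose and Kcng4 (-0.90, SE 0.17, edgeR adjusted p = 0.00124) fell. Without library 8, Kcng4 (-0.86, edgeR adjusted p = 0.0426) still passed, and Kcnf1 (0.18, 0.682), Kcng1 (0.26, 0.558) and Kcns3 (0.36, 0.152) did not. Of the M-current genes, Kcnq3 (0.40) and Kcnq5 (0.56) rose, and neither passed without library 8 (0.22 and 0.24, edgeR adjusted p = 0.251 and 0.556). Of the Kcna genes, Kcna4 (0.57, SE 0.08, edgeR adjusted p = 9.3e-05) and Kcna5 (0.76) rose, and of the Kcnh genes Kcnh2 (0.24) and Kcnh7 (0.48) rose. Without library 8, Kcna4 (0.50, edgeR adjusted p = 0.00969) still passed, and Kcna5 (0.39, 0.207), Kcnh2 (0.17, 0.244) and Kcnh7 (0.36, 0.130) did not.

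**Figure D4:**
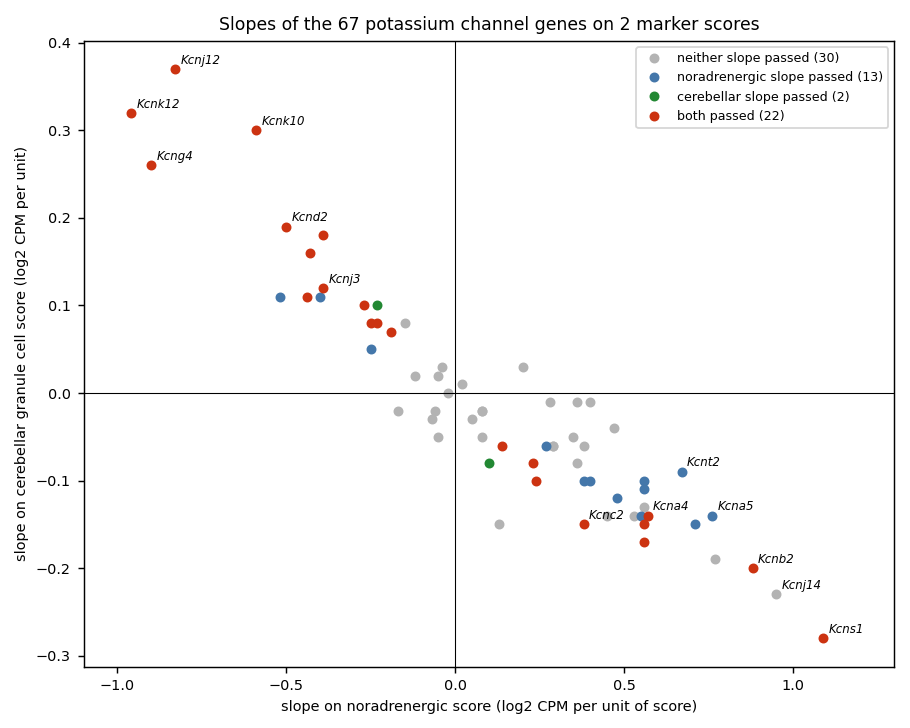
Slope of each of the 67 members on the noradrenergic score (x axis) against its slope on the cerebellar granule cell score (y axis), both in log2 CPM per unit of score, coloured by which slope passed in edgeR. The 22 members that passed on both, in red, lie in the upper left (13) and lower right (9) parts of the plot.

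On the cerebellar score the steepest positive slopes that passed were those of Kcnj12 (0.37), Kcnk12 (0.32), Kcnk10 (0.30, SE 0.03, edgeR adjusted p = 1.9e-06), Kcng4 (0.26) and Kcnd2 (0.19, SE 0.03, edgeR adjusted p = 2.7e-05). Kcnd2 is known to be abundant in cerebellar granule cells. Kcnk10, a stretch-activated leak channel gene, ran from 29.5 CPM in CnB1KO_SD6 library 20, the library with the lowest cerebellar score, to 72.2 CPM in WT_SD6 library 8, the library with the highest. The steepest negative slopes that passed were those of Kcns1 (-0.28), Kcnb2 (-0.20), Kcnj2 (-0.17), Kcns3 (-0.15) and Kcnc2 (-0.15, SE 0.03, edgeR adjusted p = 6.5e-04). Without WT_SD6 library 8, Kcnk10 (0.28, edgeR adjusted p = 3.7e-06), Kcnd2 (0.18, 5.5e-05) and Kcnj9 (0.17, 5.3e-05) still passed, as did Kcnj12, Kcnk12, Kcns1, Kcnj2 and Kcnc2. Kcng4 (0.20, edgeR adjusted p = 0.0693), Kcnb2 (-0.14, 0.0977) and Kcns3 (-0.11, 0.0660) did not, and Kcnb2 passed in only 9 of 22 alternatives.

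**Figure D5:**
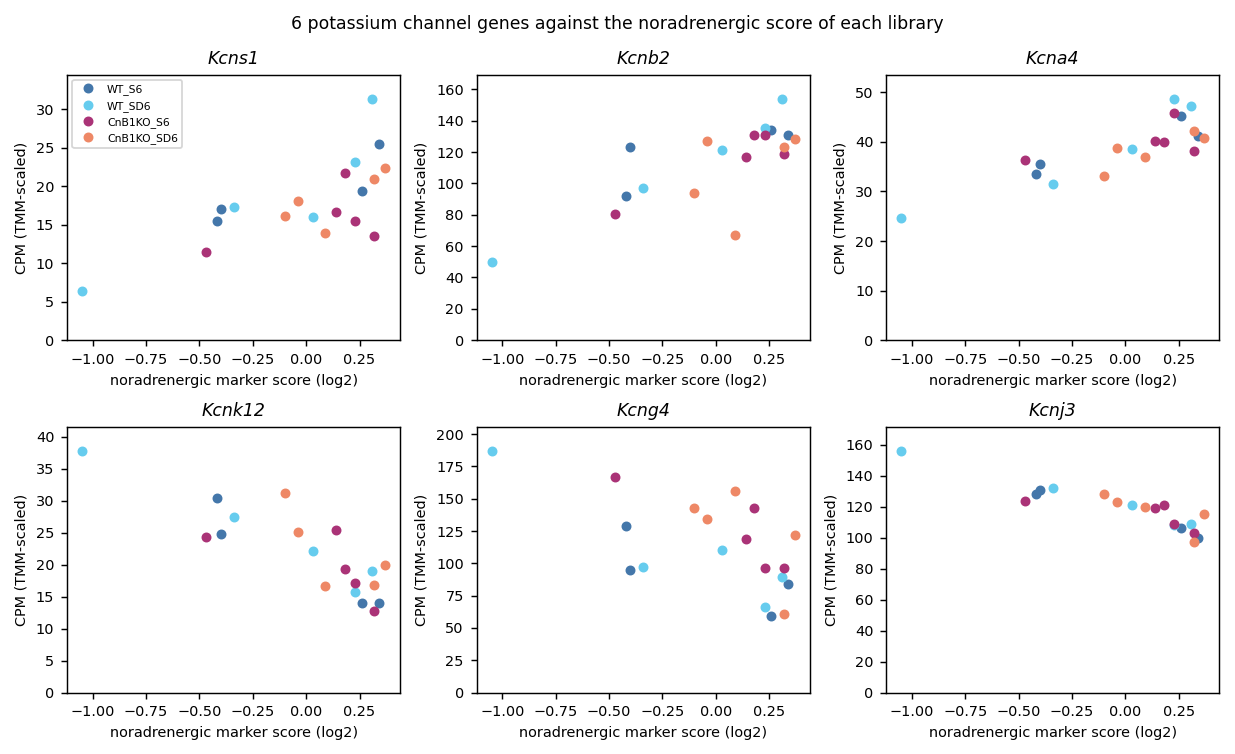
CPM of 6 members (y axis) against the noradrenergic score of the library (x axis, log2), with 1 point per library coloured by group. Kcns1, Kcnb2 and Kcna4 are lowest and Kcnk12, Kcng4 and Kcnj3 highest in WT_SD6 library 8, the point at -1.05, and each slope keeps its sign and passes without that library.

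Proteins that bind or traffic these channels were listed as partners, 42 genes of which 40 had counts. In 6 of the 7 comparisons 0 partners passed. Lgi1, which encodes a secreted protein tied to Kcna channels at synapses, passed for deprivation averaged over genotypes. This made 1 of 40 partners called there, where 4.69% of all genes were called. Lgi1 was 81.5 ± 2.97 (SD, n = 4) and 86.2 ± 1.78 (SD, n = 5) CPM in WT and 84.9 ± 3.50 (SD, n = 5) and 94.3 ± 2.52 (SD, n = 5) CPM in CnB1KO, after sleep and deprivation. The rise was 1.08-fold (log2 0.12, SE 0.03, edgeR adjusted p = 0.0162). It was 1.06-fold in WT alone and 1.11-fold in CnB1KO alone, and neither passed (edgeR adjusted p = 0.432 and 0.0672).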

How the data were processed

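The authors deposited whole-number counts per gene symbol for 19 libraries and a table of FPKM per group. The 19 columns of TPM in those tables were not used. Per the submitters' processing notes the tools included StringTie 2.2.1, HTSeq 2.0.4, SAMtools 1.6, Picard 2.18.29, Trim Galore 0.6.10 and FastQC 0.12.1, with GRCm38, and no aligner (not given in the sources used here). Counts were TMM-scaled and tested in R 4.3.3 with edgeR 4.0.16 (quasi-likelihood F test, 2-sided, Benjamini-Hochberg over 14443 genes, threshold 0.05), with all 19 libraries in 1 fit of 4 groups and 15 residual degrees of freedom. filterByExpr kept every gene. The 7 comparisons were refitted with DESeq2 1.42.0, limma 3.58.1 and the settings listed in the closing section. The 3 score slopes were refitted with limma voom, all 3 scores in 1 fit, the log2 library total as covariate and each library left out. They were not refitted with DESeq2, other size factors, other count filters or FPKM. Log2 CPM of the scores used a prior count of 2. The fit was tested on simulated data. The columns of the count table carry library numbers, which name the libraries here. By rule, named genes were those that passed (or, with fewer than 4, the 4 smallest p) and the 5 steepest slopes each way. The rule also took the highest and lowest FPKM of each subfamily and a fixed list of main channels. Other members, among them Kcnj14 and Kcnj11, are named outside this rule. The members and lists were chosen with earlier results of these data known. Protein sequences were not analysed here, and 4 of the members are not reported here by name, though they stay in the fits and counts. Positions are from GENCODE M21.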

Additional observations from a re-analysis of the deposited data

Results flagged for a closer look

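A library far from the rest of its group (a gap large against the range of the group) was sought among 47 members named by rule. It was found in 10 of 188 groups of libraries tested (5.32%), a share near the 1 in 20 that chance gives. WT_SD6 library 8 was far below the others in Kcnip2 (7.16 CPM, others 16.4 to 18.9), Kcnq3 (157 CPM, others 246 to 272) and Kcnv1 (1.98 CPM, others 7.66 to 8.90). In CnB1KO_S6, library 12 was low in Kcnb2 (80.4 CPM, others 117 to 131) and library 14 low in Kcnk13 (20.7 CPM, others 24.6 to 25.9). Library 14 was high in Kcnt1 (247 CPM, others 208 to 217), and library 15 in Kcns3 (37.0 CPM, others 26.6 to 29.3). In CnB1KO_SD6, library 16 was high in Kcnmb1 (10.1 CPM, others 3.20 to 4.98). In WT_S6, library 2 was high in Kcnd1 (48.3 CPM, others 39.9 to 41.0) and library 4 in Kcnv1 (10.2 CPM, others at most 6.58).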

How the results depend on the processing

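The count of members called stayed at 0 in the 4 comparisons within a genotype or sleep state and in the interaction under every alternative run, which were DESeq2, limma voom, RLE size factors, a stricter count filter, no filter, the log2 library total or each score as covariate, FPKM with limma, each library left out and, except for the interaction, the compared libraries alone. Averaged over genotypes, 1 member was called for deprivation with the noradrenergic score as covariate, and 0 to 2 with 1 library left out, the 2 without WT_SD6 library 8. For the averaged genotype comparison, 3 were called with DESeq2, 4 with the noradrenergic score and 0 with the oligodendrocyte score as covariate, and 1 to 5 with 1 library left out. The 5 came without CnB1KO_SD6 library 16, 4 without WT_SD6 library 8, 3 without CnB1KO_S6 library 14, and 2 without WT_S6 library 1 or 2, WT_SD6 library 10 or CnB1KO_S6 library 11. With all 3 scores in 1 fit, 3 members passed on the noradrenergic, 0 on the cerebellar and 0 on the oligodendrocyte score, and 4 passed on the oligodendrocyte score with the log2 library total. With 1 library left out, 9 to 41 passed on the noradrenergic score, 16 to 26 on the cerebellar score and 1 to 10 on the oligodendrocyte score. The lowest of the first 2 and the highest of the third came without WT_SD6 library 8. On the third, 2 passed without WT_SD6 library 9 or CnB1KO_S6 library 13. Without WT_SD6 library 8, 858, 2099 and 1395 of all 14443 genes passed on the 3 scores, against 3148, 2970 and 238 with all libraries. The other member counts of this section stand without the count of all genes, which also moved with the setting. The cause of these moves was not tested. Single genes named by rule kept direction and side of the threshold in 328 of 353 values under other settings. They did so in 892 of 931 with 1 library left out, and none changed sign. TPM in place of FPKM was planned and not run. No paired analysis was possible because the columns carry library numbers that are not the replicate numbers of the labels.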

Other observations

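Besides the members, 27 Kcn symbols had FPKM but no counts, and 4 of them averaged over 1 FPKM. Kcnmb4, the neuronal beta subunit gene of the Kcnma1 channel, stood at 9.57 ± 3.53 FPKM (SD, n = 19), from 5.28 in CnB1KO_S6 library 13 to 17.6 in WT_SD6 library 8, the library with the highest cerebellar score. Kcne2 and Kcnj13, a channel subunit and an inward rectifier gene known from choroid plexus, stood at 12.1 and 11.8 FPKM in CnB1KO_SD6 library 18 and at no more than 1.55 and 1.83 FPKM in any other library. The same library had 80.9 FPKM of Ttr, 17.5 of Folr1 and 18.3 of Kl, all known from choroid plexus. Ttr was also at 38.9 FPKM in WT_SD6 library 10 and at 31.4 and 18.7 FPKM in WT_S6 libraries 2 and 1. Folr1 and Kl were at most 2.36 and 5.01 FPKM elsewhere. CnB1KO_SD6 library 18 had the lowest summed CPM of the members, 5846, against 6447, 6459 and 6228 in those 3 libraries. A link between the 2 was not tested. The pain-related leak channel gene Kcnk18 was at 0.00564 FPKM on average.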
